A study of Mus musculus with 24 samples.

Results

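The MAP kinase phosphatases of the DUSP family that are described here are 9 genes, Dusp1, Dusp3, Dusp4, Dusp5, Dusp6, Dusp8, Dusp10, Dusp14 and Dusp16, of 18193 genes measured. They were taken as the probe sets that the array annotation pairs with exactly 1 of these symbols, 15 of 34945 such probe sets, and each gene was represented by its probe set with the highest mean over all 24 arrays. The samples came from the cerebral cortex of adult mice heterozygous for a transgene that puts a ribosomal protein fused to eGFP (eGFP-L10a) behind the astrocyte promoter of Aldh1l1. RNA precipitated with the tagged ribosomes is the bound fraction, and RNA left in the supernatant, from neurons and other glia as well as from what the precipitation missed, is the unbound fraction. Every group carried the transgene, and none was a mouse without it.

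The bound groups were 6 waking mice, 6 sleep-deprived mice and 6 sleeping mice, with 1 animal an array. The unbound groups were 2 waking, 2 sleep-deprived and 2 sleeping pools, each of the 3 animals numbered 1 to 3 or 4 to 6 in the bound groups. Waking mice were killed at about 3 to 5 am, in the dark period, after a wake bout of more than 1 h and at least 70% wake over the preceding 6 to 7 h. Sleep-deprived mice had been awake for most of the dark phase and were then kept awake with new objects for 4 h of the light period. Sleeping mice were killed at about 3 to 5 pm, in the light period, when a bout had run for more than 45 min and sleep had filled at least 75% of the preceding 6 to 7 h. Spontaneous waking and time of day cannot be told apart in the comparison of waking with sleep. Forced wake and time of day cannot be told apart in the comparison of sleep deprivation with waking either.

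MAP kinase phosphatases remove phosphate from both the threonine and the tyrosine whose phosphorylation switches a MAP kinase on. Several of them are transcribed in response to the kinase they silence, so that they form a negative feedback loop, and in brain the inducible members are counted among the activity-regulated genes. Dusp1, Dusp4 and Dusp5 encode inducible nuclear enzymes, with Dusp5 specific to ERK. Dusp6 encodes the cytoplasmic ERK phosphatase, Dusp8, Dusp10 and Dusp16 encode enzymes that prefer the stress kinases JNK and p38, and Dusp3 and Dusp14 encode small atypical members that lack the kinase-binding domain.

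Promoter windows in the RefSeq table for GRCm38.p6, each from 250 bases before to 50 bases after a start, were found for 8 of the 9 members (all but Dusp4). For Dusp3, Dusp8, Dusp14 and Dusp16 the window lies inside the annotated gene and does not cover its upstream end (at chr7:142095907 for Dusp8). The 4 windows below are those of the 3 genes that rose in the bound fraction after sleep deprivation (Dusp1, Dusp5 and Dusp6) and of Dusp8, which did not pass in any state comparison and yet held the most matches to a cyclic AMP response element. They lie at chr17:26508423-26508722 on the minus strand (Dusp1), chr19:53528895-53529194 on the plus strand (Dusp5), chr10:99262981-99263280 on the plus strand (Dusp6) and chr7:142095235-142095534 on the minus strand (Dusp8), and are written 5′ to 3′ along the gene. Capitals mark matches, on either strand, to the full cyclic AMP response element (TGACGTCA), its short form (TGACG), an E-box (CACGTG) or the CArG box, the site of serum response factor.
Dusp1: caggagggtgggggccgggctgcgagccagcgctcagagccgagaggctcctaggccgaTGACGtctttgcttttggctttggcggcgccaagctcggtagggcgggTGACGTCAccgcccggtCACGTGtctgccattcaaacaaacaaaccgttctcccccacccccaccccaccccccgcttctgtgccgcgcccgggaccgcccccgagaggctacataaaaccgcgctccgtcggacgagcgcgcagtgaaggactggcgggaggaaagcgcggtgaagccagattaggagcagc
Dusp5: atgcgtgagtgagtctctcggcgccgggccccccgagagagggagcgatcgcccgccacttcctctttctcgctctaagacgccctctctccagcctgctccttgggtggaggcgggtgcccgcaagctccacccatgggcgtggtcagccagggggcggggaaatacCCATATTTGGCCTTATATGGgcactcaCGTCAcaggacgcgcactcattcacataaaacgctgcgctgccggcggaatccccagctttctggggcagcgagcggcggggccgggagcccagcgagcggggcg
Dusp6: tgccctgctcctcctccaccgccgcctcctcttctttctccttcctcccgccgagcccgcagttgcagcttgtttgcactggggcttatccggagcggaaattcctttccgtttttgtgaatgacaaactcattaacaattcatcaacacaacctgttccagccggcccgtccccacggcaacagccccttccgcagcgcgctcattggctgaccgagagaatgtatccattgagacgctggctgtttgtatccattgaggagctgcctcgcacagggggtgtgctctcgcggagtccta
Dusp8: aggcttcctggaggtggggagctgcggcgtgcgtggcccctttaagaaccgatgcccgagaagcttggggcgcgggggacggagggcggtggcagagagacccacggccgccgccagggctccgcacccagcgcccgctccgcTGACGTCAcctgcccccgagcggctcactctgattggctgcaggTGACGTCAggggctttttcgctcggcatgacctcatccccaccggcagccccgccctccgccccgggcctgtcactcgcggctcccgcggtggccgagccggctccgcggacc

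The full cyclic AMP response element was in 2 of the 8 windows, against 1.79% of all 32851 promoter windows in the table. Dusp1 had it at -143 bases from the start used for its window, and Dusp8 had it at -107 and -63 from a start inside the annotated gene. The short form, which every full element also contains, was in 4 windows (Dusp1, Dusp5, Dusp8 and Dusp16), against 20.8% of all windows. Dusp5 held a pair of adjoining CArG boxes, at -82 and -72, and no other member had one, against 1.63% of all windows. Dusp1 was also the 1 member with an E-box (7.15% of all windows). The AP-1 site (TGANTCA, 7.81% of all windows) and the glucocorticoid response element (the half-site GNACA facing its reverse complement TGTNC across 3 bases, 0.475%) were in 0 of 8. Dusp6, Dusp3, Dusp10 and Dusp14 had no match to any of these motifs, which says only that these letters are not in this window. A match is a description of letters, not of a bound site.

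All levels below are deposited log2 RMA values (a background-corrected, normalized array signal), which compare samples for 1 probe set and not 1 gene with another. Log2 differences and folds are given relative to the median log2 difference of all genes in the same comparison. In bound samples this median was 0.09 (waking minus sleep), 0.11 (sleep deprivation minus sleep) and 0.02 (sleep deprivation minus waking), and in unbound samples 0.30, 0.18 and -0.12 in that order. It was 0.16 for bound minus unbound, and the state effects had medians of -0.22 (waking) and -0.06 (sleep deprivation) in the bound minus the unbound fraction. Errors are standard errors (SE) of the limma fit, and a gene passed (rose or fell) at an adjusted p under 0.05 over all 18193 genes, on the difference as fitted. Exactly tied probe-set values occurred in 48 of 48 pairs of arrays from the same group and in 0 of 228 pairs from different groups. No source used here states the sets in which RMA was run, and if each group was normalized alone, group and normalization run cannot be told apart. All 14 astrocyte markers were higher in the bound fraction, and 13 of 14 neuron markers were lower. Within the bound fraction animals 4 to 6 differed from animals 1 to 3 in 43.8% of all genes (median log2 difference 0.01), compared after the data had been seen.

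Dusp1, the first member of the inducible nuclear class, was the 1 phosphatase that rose in the bound fraction both in waking and after sleep deprivation. Its lowest, median and highest levels were 10.63, 10.89 and 11.24 in waking, 10.85, 11.09 and 11.34 after sleep deprivation, and 9.82, 10.13 and 10.46 in sleep. Every waking and every sleep-deprived animal lay above every sleeping animal. The rise was 1.63-fold in waking (log2 0.70 ± 0.14, limma adjusted p = 0.000976) and 1.81-fold after sleep deprivation (log2 0.86 ± 0.14, adjusted p = 0.000144), and both comparisons share the sleep arrays. Waking and sleep deprivation overlapped, and the difference between them was small against its error (log2 0.15 ± 0.14, adjusted p = 0.609). Within animals 1 to 3 the waking difference was 0.67 and did not pass (adjusted p = 0.073), and within animals 4 to 6 it was 0.73 and passed (adjusted p = 0.0273). After sleep deprivation it passed within both sets, at 0.80 and 0.90.

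Unbound Dusp1 levels were highest in waking and lowest in sleep, with 2 pools a state. The pools stood at 10.80 and 10.86 in waking, at 10.02 and 10.14 after sleep deprivation, and at 8.82 and 9.12 in sleep, with no overlap between any of these pairs. Pools of Dusp3, Dusp6 and Dusp14, which did not pass, were also apart in waking against sleep. The share of all genes with pools so separated was not counted, here and for the genes below. Waking was 2.94-fold above sleep (log2 1.56 ± 0.17, limma adjusted p = 0.0308) and sleep deprivation was 1.91-fold above sleep (log2 0.93 ± 0.17, adjusted p = 0.045). These unbound calls, like those of Dusp4 and Dusp5 below, were lost when any 1 of the 6 pools was left out, where 0 of 18193 genes passed. Sleep deprivation was at -0.63 ± 0.17 relative to waking, which did not pass (adjusted p = 0.0912). The effect of waking on Dusp1 was smaller in the bound than in the unbound fraction, by log2 -0.84 ± 0.26 (adjusted p = 0.0197). That call was lost when the arrays were centred on their medians or when unbound waking pool 1, unbound waking pool 2 or unbound sleep pool 1 was left out. For sleep deprivation the same difference between fractions was -0.08 ± 0.26 (adjusted p = 0.896). In bulk samples such as these, fewer cells of a type and less RNA per cell cannot be told apart.

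**Figure D1:**
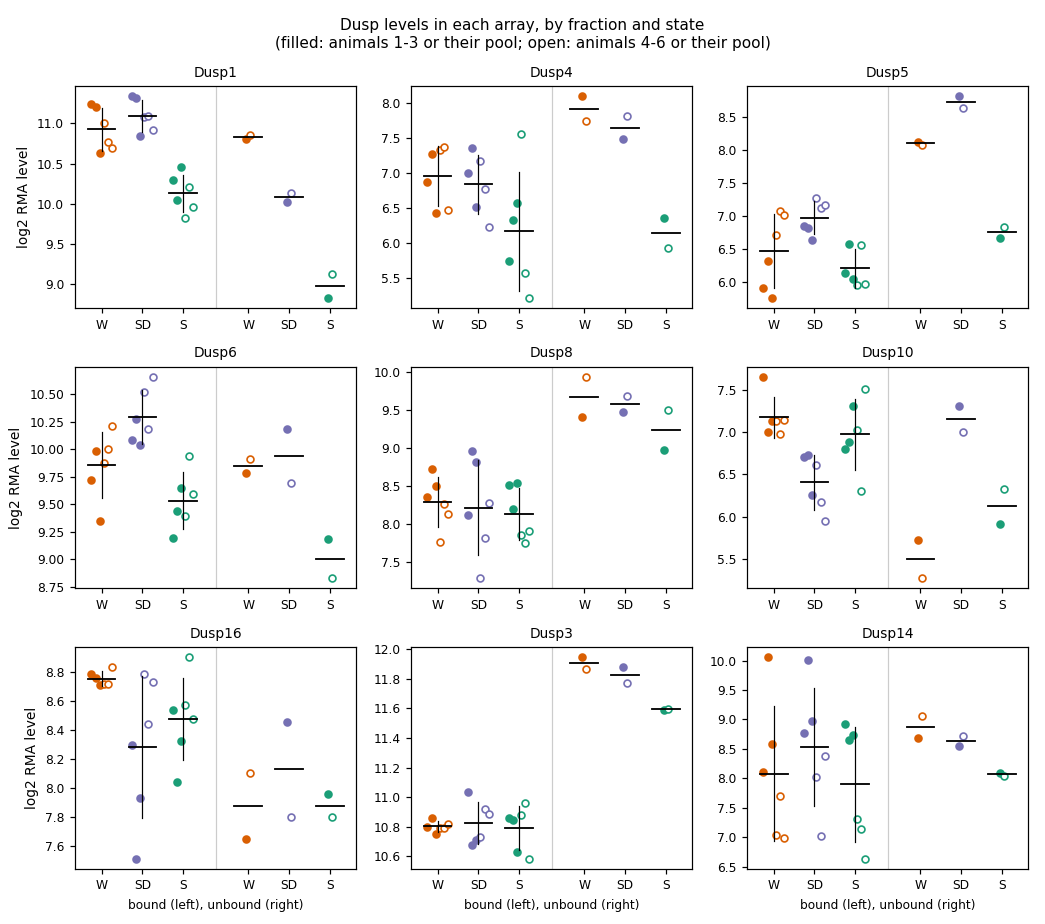
Log2 RMA level (vertical axis, own scale in each panel) of the 9 Dusp genes in every array, in waking (W), after sleep deprivation (SD) and in sleep (S), bound samples to the left and unbound pools to the right of the grey line. Filled points are animals 1 to 3 or their pool, open points animals 4 to 6 or their pool, the horizontal bar is the mean and the vertical bar the SD (bound groups, n = 6). Bound Dusp1 separates both wake groups from sleep without overlap, and bound Dusp14 separates filled from open points in every state.

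Dusp4, the second inducible nuclear phosphatase, passed in the unbound fraction. Unbound pools were at 7.74 and 8.09 in waking, 7.48 and 7.81 after sleep deprivation, and 5.94 and 6.36 in sleep. The pools of both wake states were thus above both sleep pools. Against sleep it was 2.76-fold higher in waking (log2 1.46 ± 0.23, limma adjusted p = 0.0311) and 2.49-fold higher after sleep deprivation (log2 1.32 ± 0.23, adjusted p = 0.045). Bound Dusp4 spread widely, with lowest, median and highest levels of 6.43, 7.07 and 7.36 in waking, 6.23, 6.89 and 7.35 after sleep deprivation, and 5.22, 6.04 and 7.56 in sleep. One sleeping animal, number 4, lay above all waking and all sleep-deprived animals, while the other 5 sleeping animals overlapped with them only in part. The bound differences of 0.70 ± 0.32 in waking and 0.56 ± 0.32 after sleep deprivation did not pass (adjusted p = 0.139 and 0.194). Without that sleeping animal they were 0.97 and 0.84 and passed (adjusted p = 0.0167 and 0.0257), and with replicate number as a block the waking difference passed as well (adjusted p = 0.038). With the animal sets as the block it did not pass (adjusted p = 0.107).

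Dusp5, the nuclear ERK phosphatase, rose in the bound fraction after sleep deprivation. Its lowest, median and highest levels were 5.75, 6.52 and 7.08 in waking, 6.63, 6.98 and 7.27 after sleep deprivation, and 5.95, 6.09 and 6.58 in sleep. All sleep-deprived animals were above all sleeping animals, whereas waking animals overlapped with both. Sleep deprivation gave a 1.58-fold rise over sleep (log2 0.66 ± 0.22, limma adjusted p = 0.0231). The waking difference was 0.17 ± 0.22 (adjusted p = 0.558), and sleep deprivation against waking gave 0.49 ± 0.22, which did not pass (adjusted p = 0.198). Waking animals 1 to 3 lay below waking animals 4 to 6, and the waking difference was -0.35 within the first set and 0.68 within the second, neither passing. The sleep deprivation call was lost within animals 1 to 3 (0.41, adjusted p = 0.137), with arrays centred on their medians (adjusted p = 0.0605), and without sleeping animal 4 or 6 (adjusted p = 0.0515 and 0.0506).

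In the unbound pools Dusp5 was at 8.08 and 8.13 in waking, 8.63 and 8.81 after sleep deprivation, and 6.66 and 6.84 in sleep, so that sleep deprivation was highest and sleep lowest with no overlap. It rose 2.08-fold in waking (log2 1.05 ± 0.16, limma adjusted p = 0.0308) and 3.47-fold after sleep deprivation (log2 1.80 ± 0.16, adjusted p = 0.0371). Sleep deprivation against waking was 0.74 ± 0.16 and did not pass (adjusted p = 0.112). The bound effect of sleep deprivation was -1.14 ± 0.40 relative to the unbound one, which did not pass (adjusted p = 0.0987), and passed with the animal sets as a block (adjusted p = 0.0466).

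Dusp6, the cytoplasmic ERK phosphatase, rose in the bound fraction after sleep deprivation. Its lowest, median and highest levels were 9.34, 9.93 and 10.21 in waking, 10.04, 10.23 and 10.66 after sleep deprivation, and 9.19, 9.51 and 9.94 in sleep. Sleep-deprived animals were all above the sleeping ones, and waking animals lay between and overlapped with both groups. The rise over sleep was 1.57-fold (log2 0.65 ± 0.16, limma adjusted p = 0.00269), and it was 0.60 and 0.68 within the 2 sets of animals (adjusted p = 0.0509 and 0.0417). Waking against sleep gave 0.23 ± 0.16 (adjusted p = 0.222). Sleep deprivation against waking gave 0.41 ± 0.16, which did not pass (adjusted p = 0.111) but did with replicate number (adjusted p = 0.0478) or the animal sets (adjusted p = 0.0339) as a block. Unbound pools were at 9.79 and 9.91 in waking, 9.69 and 10.18 after sleep deprivation, and 8.82 and 9.18 in sleep, and neither wake state passed against sleep (0.55 ± 0.23 and 0.76 ± 0.23, adjusted p = 0.0708 and 0.0827).

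Dusp10, a phosphatase of JNK and p38, was the 1 member that fell in a state comparison of the bound fraction. Its lowest, median and highest levels were 5.95, 6.43 and 6.72 after sleep deprivation, against 6.98, 7.13 and 7.65 in waking, with 6.31, 6.95 and 7.51 in sleep. All sleep-deprived animals were below all waking animals, and sleeping animals overlapped with both. Relative to waking, sleep deprivation was 1.73-fold lower (log2 -0.79 ± 0.19, limma adjusted p = 0.0187), and within the 2 sets of animals it was at -0.72 and -0.87, neither passing (adjusted p = 0.122 and 0.194). Relative to sleep it was at -0.68 ± 0.19 and did not pass (adjusted p = 0.0531), but passed with replicate number (adjusted p = 0.0423) or the animal sets (adjusted p = 0.0332) as a block. The unbound pools were at 7.00 and 7.31 after sleep deprivation, 5.27 and 5.72 in waking, and 5.92 and 6.32 in sleep, so that sleep deprivation was highest there. Unbound sleep deprivation against waking gave 1.79 ± 0.24 (adjusted p = 0.0505), and the effect of sleep deprivation against sleep differed between fractions by -1.54 ± 0.37 (adjusted p = 0.0127), a call lost without sleep pool 1 or sleep-deprived pool 1 of the unbound fraction.

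This pattern belonged to 1 of the 2 probe sets of Dusp10. The second probe set, of nearly the same mean level (6.61 against 6.70 for the chosen one), gave -0.08 ± 0.19 for bound sleep deprivation against waking (limma adjusted p = 0.944 over all probe sets). Its sleep-deprived animals ranged over the same levels as its waking animals. For the difference between fractions in the effect of sleep deprivation it gave -0.25 ± 0.39 (adjusted p = 0.806), and with both probe sets averaged the Dusp10 calls were lost. The chosen probe set was higher in the bound fraction and the second was lower (-0.77 ± 0.16, adjusted p = 0.000605), so the data give no single direction for Dusp10.

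**Figure D2:**
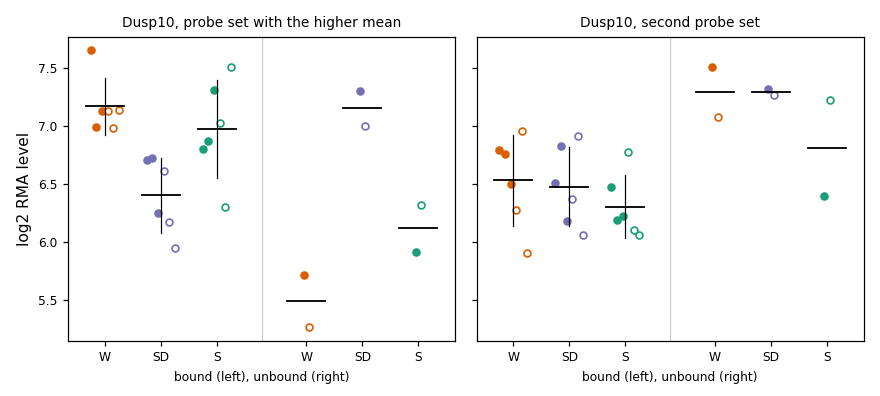
Log2 RMA level of the 2 probe sets of Dusp10 in every array, in waking (W), after sleep deprivation (SD) and in sleep (S), bound samples left and unbound pools right of the grey line; points and bars as in the plot of all members, on a common axis. With the left probe set sleep-deprived bound animals lie between 5.95 and 6.72 and waking ones between 6.98 and 7.65, and with the right one these groups overlap.

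Dusp8 and Dusp16, the other JNK and p38 phosphatases, did not pass in any state comparison. Dusp8 had lowest, median and highest bound levels of 7.76, 8.31 and 8.72 in waking, 7.28, 8.20 and 8.96 after sleep deprivation, and 7.75, 8.05 and 8.53 in sleep, which overlapped throughout. Its unbound pools were at 9.41 and 9.93 in waking, 9.47 and 9.67 after sleep deprivation, and 8.97 and 9.49 in sleep. A second Dusp8 probe set gave -0.85 ± 0.22 for bound sleep deprivation against waking (limma adjusted p = 0.0256 over all probe sets), where the chosen one gave -0.10 ± 0.25, and the third gave 0.05 ± 0.23. Dusp16 was at 8.71, 8.74 and 8.84 in bound waking samples, at 7.51, 8.37 and 8.79 after sleep deprivation, and at 8.04, 8.50 and 8.90 in sleep. The 6 waking animals lay close together, while the other states spread over and beyond their range. Its unbound pools were at 7.65 and 8.10 in waking, 7.80 and 8.46 after sleep deprivation, and 7.80 and 7.96 in sleep, with all states overlapping. The second Dusp16 probe set was near the bottom of the scale (mean 2.34, percentile 2.4 of the probe sets), and in bound waking against sleep it gave -0.51 ± 0.10 (adjusted p = 0.0101) where the chosen one gave 0.19 ± 0.18.

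The atypical phosphatases Dusp3 and Dusp14 did not pass with state either. Dusp3 varied little, with bound lowest, median and highest levels of 10.75, 10.79 and 10.86 in waking, 10.67, 10.81 and 11.03 after sleep deprivation, and 10.58, 10.85 and 10.96 in sleep. The bound difference was -0.08 ± 0.09 in waking and in sleep deprivation alike, each against sleep (limma adjusted p = 0.978 and 0.884). Unbound Dusp3 was at 11.87 and 11.95 in waking, 11.77 and 11.88 after sleep deprivation, and 11.59 and 11.60 in sleep, a difference of 0.01 ± 0.15 and 0.06 ± 0.15 once the median of all genes was taken off. Dusp14 varied widely, with bound levels of 6.99, 7.90 and 10.06 in waking, 7.02, 8.58 and 10.004 after sleep deprivation, and 6.64, 7.98 and 8.92 in sleep. That spread ran with the animal sets, since animals 4 to 6 were lower than animals 1 to 3 by log2 -1.63 ± 0.25 relative to the median gene (limma adjusted p = 4.39e-05). Dusp8 was lower in animals 4 to 6 too (-0.64 ± 0.14, adjusted p = 0.00114), and Dusp5, Dusp6 and Dusp16 were higher (0.41, 0.28 and 0.35, adjusted p = 0.0264, 0.0298 and 0.0233). Unbound pools of Dusp14 were at 8.69 and 9.07 in waking, 8.55 and 8.73 after sleep deprivation, and 8.05 and 8.10 in sleep, so that both wake states were above sleep, though neither passed (0.51 ± 0.19 and 0.39 ± 0.19, adjusted p = 0.0562 and 0.136). What separated the 2 sets of animals is not stated and was not tested.

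Over the family, 1 of 9 members rose and 0 fell in bound waking samples against sleep, where 11.2% of all genes passed, 9.07% higher and 2.14% lower. After sleep deprivation 3 rose and 0 fell in the bound fraction, where 14.3% of all genes passed, 12.3% higher and 2.02% lower. Between sleep deprivation and waking 0 rose and 1 fell, where 6.84% passed, 4.17% higher and 2.67% lower. The median relative log2 difference of the 9 members was 0.17, 0.52 and 0.00 in these comparisons, beside 0 for all genes by construction. In the unbound fraction 3 members rose and 0 fell in waking, where 6.32% of all genes passed, 5.71% higher and 0.605% lower. After sleep deprivation 3 rose and 0 fell there too, where 1.87% passed, 1.42% higher and 0.451% lower. These had member medians of 0.51 and 0.76. Unbound sleep deprivation against waking gave 0 members in limma, where 0.759% of all genes passed, 0.242% higher and 0.517% lower, although 3 members and 21% of all genes had an unadjusted p under 0.05. Differences between fractions in the effect of waking passed as lower for 1 member, where 5.6% of all genes passed, 1.89% higher and 3.71% lower. In the effect of sleep deprivation 1 member passed as lower, where 4.89% of all genes passed, 2.91% higher and 1.98% lower. In the bound fraction the shares of all genes were lower with dim genes left out. There 86 of 9097 genes passed in waking and 216 of 9097 after sleep deprivation, each against sleep. The split of all genes depended on scaling. With arrays centred on their medians 1055 genes rose and 571 fell in bound waking (1650 and 389 as deposited), and 1316 rose and 587 fell after sleep deprivation (2230 and 367 as deposited). Unbound waking then gave 0 higher and 0 lower (1039 and 110 as deposited), and the unbound waking rises of Dusp1, Dusp4 and Dusp5 did not pass (limma adjusted p = 0.0551, 0.0599 and 0.0567). Unbound sleep deprivation gave 76 higher and 77 lower (259 and 82 as deposited), bound against unbound 5049 and 7662 (7672 and 4955 as deposited), and the effect of waking between fractions 624 and 255 (343 and 675 as deposited).

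**Figure D3:**
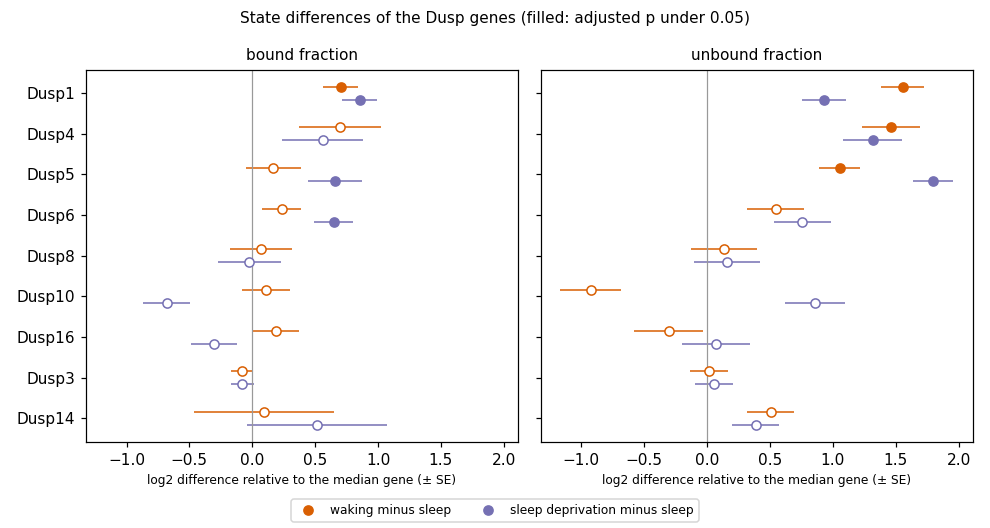
Log2 difference relative to the median gene (horizontal axis, ± SE) of each Dusp gene, for waking minus sleep (orange) and sleep deprivation minus sleep (violet), in the bound fraction (left) and the unbound fraction (right). Filled points passed at an adjusted p under 0.05: Dusp1 in both bound comparisons, Dusp5 and Dusp6 after sleep deprivation in the bound fraction, and Dusp1, Dusp4 and Dusp5 in both unbound comparisons.

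Between the fractions, 4 members were higher in bound samples and 4 were lower, where 69.4% of all genes passed, 42.2% higher and 27.2% lower. Dusp3, Dusp5 and Dusp8 were the most depleted. Dusp3 was 2.19-fold lower in bound than in unbound samples (log2 -1.13 ± 0.07, limma adjusted p = 5.92e-11), and all 18 bound arrays were below all 6 unbound ones. Relative to the median of all probe sets, its second probe set was lower as well (-1.35 ± 0.12, limma adjusted p = 3.81e-09), and the remaining one was at -0.15 ± 0.30 and did not pass (adjusted p = 0.828). Dusp8 was 2.72-fold lower (-1.44 ± 0.19, adjusted p = 5.44e-06), also without overlap, and its other probe sets were lower too (-1.26 ± 0.17 and -0.70 ± 0.18). Dusp5 was 2.77-fold lower (-1.47 ± 0.17, adjusted p = 4.19e-07) and Dusp4 was at -0.74 ± 0.25 (adjusted p = 0.0409), a call lost in 13 of 32 alternatives. Neuron markers moved the same way, with a mean level of 9.39 to 10.16 over the bound arrays against 11.60 to 11.90 over the unbound pools. So did 8 of 9 oligodendrocyte and 3 of 4 oligodendrocyte precursor markers. Of 9 microglia markers 6 were lower and 1 was higher, and of 7 pericyte and smooth muscle markers 4 were lower and 1 was higher. Of the oligodendrocyte markers 1 was higher. The part of any of these cells in these results was not tested.

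Bound samples had 1.51-fold more Dusp1 than unbound samples (log2 0.60 ± 0.11, limma adjusted p = 2.47e-06), a call kept in 33 of 33 alternatives. This mean over states covered unequal states, since unbound waking pools (10.80 and 10.86) lay inside the range of bound waking animals and unbound sleep pools (8.82 and 9.12) lay below all bound sleeping animals. Dusp16 (0.38 ± 0.15, adjusted p = 0.00323), Dusp10 (0.43 ± 0.15, adjusted p = 0.0016) and Dusp6 (0.14 ± 0.13, adjusted p = 0.0415) passed as higher too. These 3 calls were lost when the arrays were centred on their medians (limma adjusted p = 0.879 for Dusp6). The Dusp6 call was lost in 14 of 33 alternatives, and the second Dusp16 probe set was lower (-0.60 ± 0.11, adjusted p = 0.000374). Dusp14 did not pass (-0.52 ± 0.42, adjusted p = 0.457).

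**Figure D4:**
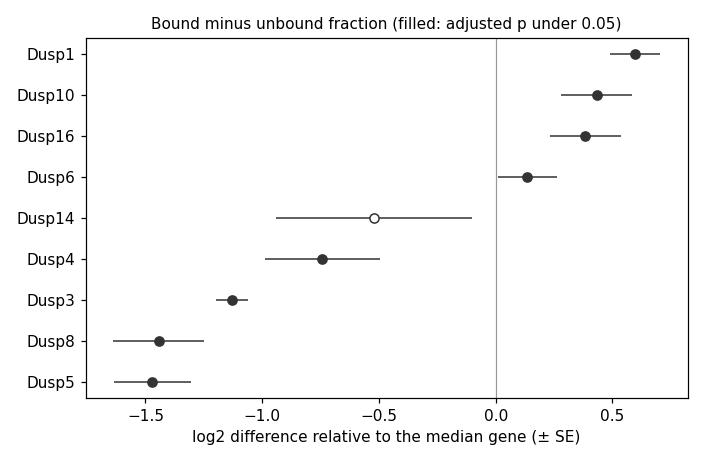
Log2 difference between the bound and the unbound fraction relative to the median gene (horizontal axis, ± SE) for each Dusp gene, from 18 bound and 6 unbound arrays. Filled points passed at an adjusted p under 0.05; Dusp1, Dusp10, Dusp16 and Dusp6 lie right of 0, and Dusp4, Dusp3, Dusp8 and Dusp5 lie left of it.

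The genes around the phosphatases in the pathway were counted from lists chosen with earlier results of these data known. Of 15 immediate early and ETS-family genes downstream of ERK, 6 rose and 0 fell in bound waking samples, led by the transcription factor gene Egr2 (log2 2.56 ± 0.55), the synaptic gene Arc (2.23 ± 0.34), the nuclear receptor gene Nr4a1 (1.77 ± 0.27) and the AP-1 gene Fosb (1.14 ± 0.29). After sleep deprivation 7 rose and 0 fell, with Egr2 at 3.28 ± 0.55, Arc at 2.60 ± 0.34, Nr4a1 at 2.17 ± 0.27 and Fosb at 2.15 ± 0.29. The other 9 and 8 genes of the list did not pass, and the median relative log2 difference of the 15 was 0.37 in waking and 0.15 after sleep deprivation, beside 0.17 and 0.52 for the 9 Dusp genes. In the unbound fraction 6 of the 15 rose in waking and 5 after sleep deprivation, where 5.71% and 1.42% of all genes rose. With the animal sets as a block 0 of 18193 genes passed there.

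Of the 3 other typical MAP kinase phosphatases, Dusp2 and Dusp7 did not pass in a bound state comparison and Dusp9, a cytoplasmic ERK phosphatase, rose after sleep deprivation (0.77 ± 0.19, limma adjusted p = 0.00416). Of 9 Sprouty, Spred and other feedback inhibitors of the same pathway, Spry4 alone rose in bound samples, in waking (0.52 ± 0.15, adjusted p = 0.0152) and after sleep deprivation (0.52 ± 0.15, adjusted p = 0.00959). Of all genes, 11.2% passed in bound waking and 14.3% after sleep deprivation. Of 8 MAP kinases 0 passed in bound waking and 1 rose after sleep deprivation (the p38 gene Mapk13, 0.40 ± 0.13, adjusted p = 0.0147). Of 6 MAP kinase kinases, Map2k6, which activates p38, rose in waking (0.61 ± 0.16, adjusted p = 0.00783) and 0 passed after sleep deprivation. Of 10 MAP kinase kinase kinases and 7 kinases downstream of MAP kinases, 0 passed in either. Of 9 transcription factors that JNK or p38 phosphorylates, Max rose in bound waking (0.59 ± 0.22, adjusted p = 0.0492), and 0 passed after sleep deprivation.

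In the bound fraction the mean level of neuron markers overlapped between states. Their mean level had lowest, median and highest values of 9.39, 9.66 and 10.01 in waking, 9.56, 9.71 and 10.02 after sleep deprivation, and 9.60, 9.72 and 10.16 in sleep, and of 14 markers 0 rose in either wake state and Stmn2 fell after sleep deprivation. Astrocyte markers stood at 12.44, 12.61 and 12.65 in waking, 12.47, 12.55 and 12.61 after sleep deprivation, and 12.38, 12.48 and 12.52 in sleep, where 2 of 14 rose in waking and 1 after sleep deprivation. In bound waking 2 of 9 oligodendrocyte, 1 of 4 oligodendrocyte precursor, 1 of 9 microglia and 1 of 7 endothelial markers rose as well, and after sleep deprivation 0 of each of these lists passed. Beside these marker counts, 9.07% of all genes rose and 2.14% fell in bound waking. After sleep deprivation 12.3% of all genes rose and 2.02% fell. Of 7 pericyte and smooth muscle markers 2 rose and 1 fell in waking, and 1 rose and 1 fell after sleep deprivation. Of the 2 red blood cell markers tested, 1 rose in waking and 2 after sleep deprivation, at a low mean level (3.42 to 4.63 over the bound arrays). Of 7 ependymal and choroid plexus markers 0 passed in either, with median relative log2 differences of -0.68 in waking and -0.92 after sleep deprivation, and 1 (Foxj1) was lower in sleep deprivation than in waking. Their mean level had lowest, median and highest values of 5.54, 7.14 and 8.398 in waking, 5.63, 6.78 and 8.20 after sleep deprivation, and 6.06, 7.97 and 8.53 in sleep. Of 7 meningeal and fibroblast markers 0 passed in either, with medians of -0.41 and -0.32, and 6 of 7 were higher in bound than in unbound samples. The part of these other cells in the Dusp results was not tested.

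Among 8840 genes at or above the median level in the bound arrays, the closest to Dusp1 over the 18 bound arrays were Rsrp1 (Pearson r = 0.936), Arc (0.914) and Elavl1 (0.902). For Dusp6 they were Ncoa5 (0.908), Dio2 (0.883) and Chka (0.865), and for Dusp5 they were Gtf2b (0.895), Clasp2 (0.815) and Chka (0.814). Those closest to Dusp10 were Spg7 (0.817), Tmem35a (0.771) and Ctr9 (0.767). Among the members themselves Dusp5 and Dusp6 had the highest correlation (0.836), followed by Dusp8 and Dusp14 (0.764), and Dusp5 and Dusp10 ran opposite (-0.641). These values describe arrays that share states, animal sets and normalization.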

How the data were processed

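RNA of bound and unbound fractions was hybridized to Affymetrix Mouse Genome arrays. The deposited log2 values were made with RMA by the authors, per the submitters' processing notes. Its version is not given in the sources used here. Of 45101 probe sets, 64 controls, 932 with several gene symbols and 9160 with none were left out, and 18193 genes were tested, each by its probe set with the highest mean. Models were fitted in limma 3.58.1 (R 4.3.3; lmFit and eBayes, Benjamini-Hochberg adjustment over all genes, threshold 0.05). States were compared over the 18 bound arrays, or over the 6 unbound ones, and fractions over all 24 arrays in 6 groups. No model had a block, a covariate or a dropped array.

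Residuals of bound arrays with the same replicate number in different states correlated at 0.268 to 0.53 (18 pairs, all over 0.1). Arrays with other numbers of the same animal set (1 to 3 or 4 to 6) gave 0.246 to 0.532, and after the sets were removed same-numbered arrays gave -0.109 to 0.181, so the arrays share the animal set and not, beyond it, the number. Unbound pools gave 0.001 to 0.029. Values with either block are printed where a call in the bound fraction or between fractions changes. In the unbound fraction 0 of 18193 genes passed with the animal sets as a block. There the limma adjusted p of Dusp1, Dusp4 and Dusp5 was 0.0626 each in waking. It was 0.078, 0.0838 and 0.078 after sleep deprivation. Alternatives were the replicate block, the animal sets, a filter on dim genes, probe set rules, normalization, spread estimates and each array left out. The fit was tested on simulated data in which 67, 67 and 66 of 18193 genes were shifted by log2 0.5, 1 and 2. Its noise was independent between genes and between arrays. It held no animal sets, no animals shared between pools and bound arrays, and no normalization by group. The rates that follow therefore need not hold for the real arrays. False calls were 13 of 129 (bound waking against sleep), 10 of 128 (bound sleep deprivation against sleep) and 2 of 44 (unbound waking). They were 25 of 168 in bound against unbound and 18 of 81 for the effect of waking between fractions. Of log2 changes of 1, 65.7%, 64.2%, 7.46%, 85.1% and 22.4% were recovered in that order. An unbound gene that did not pass may thus still have changed. The number of arrays limits precision, and p-values of state comparisons measure the spread between single animals (bound) or pools (unbound). The bound spread includes the difference between the animal sets. Between fractions 1 spread was fitted to single animals and pools together. That fit did not model that each pool holds animals of the bound arrays. Members, gene lists and the comparison of animals 4 to 6 with 1 to 3 were chosen with earlier results of these data known. Named were all members, up to 4 passing genes a pathway list in bound state comparisons, and the 3 genes most correlated with each bound-called member. Promoters came from RefSeq (GRCm38.p6). Figures used matplotlib 3.10.9.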

Additional observations from a re-analysis of the deposited data

Results flagged for a closer look

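Dusp10 in waking animal 1 of the bound fraction stood at 7.65, apart from the other 5 waking animals by 0.763 of the whole range of the group. It was the 1 such array among 27 bound groups of 6 examined, where chance alone gives about 1 in 20.

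The effect of waking on Dusp1 differed between the bound and the unbound fraction, by log2 -0.84 (limma adjusted p = 0.0197). That call was lost in 6 of 33 alternatives, and in simulated data 18 of 81 calls of this kind were false. The effect of sleep deprivation on Dusp10 differed between the fractions by log2 -1.54 (adjusted p = 0.0127), for the chosen probe set.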

How the results depend on the processing

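Across 30 alternatives the bound Dusp1 calls were kept in 29 (waking against sleep) and in 30 (sleep deprivation against sleep), with log2 0.64 to 0.77 and 0.79 to 0.92. Dusp6 after sleep deprivation was kept in 29 of 30, Dusp5 in 24 of 29 and Dusp10 against waking in 26 of 29. With the replicate block, the number of members past the threshold was 2 in bound waking against sleep (Dusp4 gained, but not with the animal sets as the block, adjusted p = 0.107), 2 in bound sleep deprivation against waking (Dusp6 gained, also with the animal sets as a block), 0 in both unbound comparisons with sleep, and 2 for the effect of sleep deprivation between fractions (Dusp5 gained); it changed no other count by over 1.5 times. The block raised the genes past the threshold in bound waking against sleep to 3064 of 18193, against 2039 without it, and in bound sleep deprivation against waking to 1913, against 1244. Over the alternatives that tested all 18193 genes, the counts of all genes ran from 638 to 3385 in bound waking, 1134 to 4102 in bound sleep deprivation (2597 as reported), and 143 to 2164 between the bound wake states. In the unbound fraction they ran from 0 to 2935 in waking (1149 as reported), 0 to 1259 after sleep deprivation (341) and 0 to 800 between them (138), and for the fraction differences in waking and sleep deprivation from 502 to 1822 (1018) and 447 to 1546 (890). Within animals 1 to 3 the members passing were 0 in bound waking, 1 after sleep deprivation and 0 between sleep deprivation and waking, and within animals 4 to 6 the last was 0, with fewer samples in each fit. Of all 18193 genes, 937, 1476 and 585 passed within animals 1 to 3, and 143 in the last. Without dim genes, which removes Dusp4, Dusp5 and Dusp10 where they are dim, the counts were 0 for bound sleep deprivation against waking, 1 for unbound sleep deprivation against sleep, 5 for bound against unbound, and 0 for both effects between fractions. Of 9097 genes tested there, 51, 36 and 7148 passed in the first 3 of these, and 44 (waking) and 13 (sleep deprivation) for the effects. Averaged probe sets gave 0 where Dusp10 had been the 1 call, that is in bound sleep deprivation against waking and in the fraction difference for sleep deprivation. Of all genes, 1434 and 921 passed there. With repeated quantile normalization and with centred arrays the counts were 0 for unbound waking, 1 for unbound sleep deprivation against sleep, 5 for bound against unbound and 0 for the effect of waking between fractions. The genes passing in these were 0, 126, 12398 and 966 with the former, and 0, 153, 12711 and 879 with the latter. An intensity trend gave 6 for unbound waking against sleep and 2 for unbound sleep deprivation against waking, the spread of all 24 arrays gave 1 for the last, and array weights gave 2 for each effect between fractions. Genes passing in these fits were 2935 and 622 with the trend and 800 with the spread of all 24 arrays. With array weights they were 1822 (waking) and 1546 (sleep deprivation). With every probe set tested, 2 members passed in bound waking, 3 in bound sleep deprivation against waking, 1 in unbound sleep deprivation against waking and 2 for the effect of waking between fractions. Of 34945 probe sets, 4087, 2606, 319 and 2145 passed there. With 1 array left out the counts ran from 1 to 2 in bound waking (2 without sleeping animal 4), stayed at 0 in unbound waking and in unbound sleep deprivation against sleep, and ran from 0 to 1 for both effects between fractions. The cause of these changes was not tested beyond that.

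Signs were reversed for Dusp16 by its second probe set in bound waking (-0.51), bound sleep deprivation against waking (0.31), bound against unbound (-0.60) and the effect of waking between fractions (-1.14), and by the mean of its probe sets in bound against unbound (-0.11). For Dusp10 in bound against unbound the mean gave -0.17 and the second probe set -0.77.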
